A study of Mus musculus with 8 samples.

Results

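A set of 10 genes of extracellular matrix breakdown and crosslinking was examined in RNA sequencing of c-Kit-enriched cells from B16F10 melanomas. They are the metalloproteinases Mmp2, Mmp14, Mmp15 and Mmp16, the inhibitors Timp1, Timp2 and Timp3, and the lysyl oxidases Lox, Loxl2 and Loxl3. The set was selected on the counts of 2 of them, Loxl2 and Mmp16, which were lower in PERK-deficient tumours in this same comparison. The differences of Loxl2 and Mmp16 are therefore given as a description with no test, and no count over the 10 genes supports anything. The other 8 carry the adjusted p of a fit across all genes. The 10 symbols matched 10 of the 55450 gene rows of the deposited table, and all 10 were among the 16662 genes that passed the filter on low counts.

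B16F10 is a pigmented mouse melanoma line. Wild-type C57BL6 mice aged 6 weeks received 150000 cells of a Scramble control line or of a PERK KO line under the skin, and tumours were taken on day 17. PERK, encoded by Eif2ak3, is a kinase of the endoplasmic reticulum. The knockout was thus in the injected tumour cells and not in the host, and whether the line was 1 clone is not stated in the labels. Cells carrying the receptor c-Kit were enriched on magnetic beads, with no flow sort. Scramble tumours 2 to 5 and PERK-deficient tumours 1 to 4 each gave 1 library. Values given for tumours are those of these enriched cells, as whole tumours were not sequenced here.

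The labels call the cells c-Kit-positive precursors, and melanocyte lineage transcripts were abundant in every library. Levels are given in CPM, counts scaled to a common library size (edgeR's CPM, with TMM factors). The 10 melanocyte lineage markers together took 24649 to 25210 CPM in scramble and 16355 to 19959 CPM in PERK-deficient libraries. The 6 blood progenitor markers took 44.4 to 62.1 CPM and 87.6 to 224 CPM, and the 6 pan-leukocyte markers 45.4 to 95.2 CPM and 204 to 849 CPM. The 7 markers of mast cells, which carry c-Kit, took 18.4 to 156 CPM in scramble and 678 to 2992 CPM in PERK-deficient libraries, and all 7 passed as higher. The 8 macrophage and monocyte markers took 55.4 to 133 CPM and 285 to 856 CPM, and all 8 passed as higher. The 8 epithelial markers took 3.21 to 5.84 CPM and 84.6 to 219 CPM, and the 6 endothelial markers 33.1 to 180 CPM and 68.6 to 245 CPM. Eif2ak3 had 48.3 to 59.2 CPM in scramble and 7.73 to 22.7 CPM in PERK-deficient libraries, so all 8 matched their labels. Kit, which encodes c-Kit, had 170 to 223 CPM in scramble and 139 to 211 CPM in PERK-deficient libraries. The log2 difference of Kit was -0.16 (edgeR adjusted p = 0.559). Library totals ran from 29006949 to 56697163 counts. In bulk RNA, fewer cells of a type and less RNA per cell cannot be told apart.

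Metalloproteinases are zinc-dependent enzymes, made as inactive precursors, that cut collagens and other matrix proteins. Membrane-type members such as Mmp14 (MT1-MMP), Mmp15 (MT2-MMP) and Mmp16 (MT3-MMP) are anchored in the plasma membrane, while Mmp2 (gelatinase A) is secreted. TIMPs block the active site, and TIMP2 bound to MT1-MMP also serves as the docking site at which pro-MMP2 is activated. Lysyl oxidases are copper-dependent enzymes that oxidise lysines of collagen and elastin so that the fibres can be crosslinked. In melanoma, MT1-MMP is known for its part in invasion.

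The catalytic site of the 4 metalloproteinases is encoded by similar but distinct bases, which are shown because reads must be told apart between these relatives. Each stretch is 63 bases of coding sequence from GENCODE M21 (mm10, plus strand), 5′ to 3′, and capitals mark the 33 bases that encode the zinc-binding site. The stretches lie in exon 5 of 10 in Mmp14 (chr14:54437612-54437674), Mmp15 (chr8:95368570-95368632) and Mmp16 (chr4:18051733-18051795), and in exon 8 of 13 in Mmp2 (chr8:92839264-92839326).
Mmp14: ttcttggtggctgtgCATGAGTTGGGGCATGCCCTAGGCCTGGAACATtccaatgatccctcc
Mmp15: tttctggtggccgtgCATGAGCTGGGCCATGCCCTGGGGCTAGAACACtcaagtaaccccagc
Mmp16: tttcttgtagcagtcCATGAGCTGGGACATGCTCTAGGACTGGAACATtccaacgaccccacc
Mmp2: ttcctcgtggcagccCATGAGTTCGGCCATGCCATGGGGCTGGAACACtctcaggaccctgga
Mmp14 and Mmp16 differ at 13 of the 63 bases, the fewest of the 6 pairs, and Mmp2 differs from Mmp14 and from Mmp16 at 19. Of all 50-base words in the transcripts of Mmp16, 0.33% also occur in a transcript of another gene, and of those of Mmp14 0.65%. For Mmp15 the share is 0.13%, and for Mmp2 none of 3366 words is shared. These shares are over all other genes and not only these relatives. The other gene with most such words was Trmt61a for Mmp16 and Vmn1r224 for Mmp14. Words shared among Mmp14, Mmp15 and Mmp16 were not counted apart.

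Mmp16 was close to absent from the c-Kit-enriched cells of PERK-deficient tumours. The gene (ENSMUSG00000028226.15) spans chr4:17852893-18119145 on the plus strand. Scramble libraries 2 to 5 had 11.2, 14.5, 13.7 and 12.3 CPM. PERK-deficient libraries 1 to 4 had 0.603, 0, 0 and 0.416 CPM, that is 18, 0, 0 and 16 counts. The groups lay far apart, and the zeros of libraries 2 and 3 allow up to 0.0732 and 0.0697 CPM (3 counts, counting error only). The group means were 12.9 ± 1.45 CPM and 0.255 ± 0.304 CPM (SD, n = 4 and 4), a log2 difference of -5.73 (SE 0.94). Its size rests on few counts, with log2 values of -6.55 without PERK_KO replicate 1 and -6.20 without PERK_KO replicate 4.

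Mmp14 was the most abundant of the 4 metalloproteinases in all 8 libraries, and all 4 PERK-deficient values lay under the scramble range. The gene (ENSMUSG00000000957.11) spans chr14:54431612-54445364. Scramble libraries 2 to 5 had 171, 169, 167 and 168 CPM, a spread of 1.45 CPM (SD, n = 4). PERK-deficient libraries 1 to 4 had 97.9, 148, 150 and 106 CPM. Libraries 1 and 4 were thus well under libraries 2 and 3, which came closer to the scramble values. The log2 difference of -0.43 (SE 0.13) missed the threshold (edgeR adjusted p = 0.0548). It passed without PERK_KO replicate 2 (adjusted p = 0.0335), without PERK_KO replicate 3 (0.0251), with limma-voom (0.0151), with DESeq2 (0.0469), with no filter on low counts (0.031) and with library totals alone (0.0159).

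Mmp15 rose, but the call rests on particular libraries. The gene (ENSMUSG00000031790.8, chr8:95352268-95375080) had 8.87, 6.44, 5.44 and 7.27 CPM in scramble libraries 2 to 5. In PERK-deficient libraries 1 to 4 it had 10.4, 8.59, 20.9 and 14.9 CPM. Library 2 fell inside the scramble range, and library 3 was the highest. On the log2 scale the rise was 0.97 with an SE of 0.28 (adjusted p = 0.0418 by edgeR). The call ended without scramble replicates 2, 3, 4 or 5 (adjusted p = 0.0612, 0.122, 0.124 and 0.0973), without PERK_KO replicates 3 or 4 (0.109 and 0.0807) and with library totals alone (0.0675).

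Mmp2, whose product is activated at the Mmp14 protein, was a low transcript. The gene (ENSMUSG00000031740.8, chr8:92827291-92853420) had 3.17, 1.32, 0.455 and 0.774 CPM in scramble libraries 2 to 5. In PERK-deficient libraries 1 to 4 it had 3.28, 5.42, 8.08 and 3.82 CPM. Each of these was above every scramble value, though library 1 only by a small step over scramble library 2. The log2 difference of 1.85 (SE 0.58) missed the threshold (edgeR adjusted p = 0.0553), and became 2.59 (adjusted p = 0.0202) without scramble replicate 2. It also passed with DESeq2 (0.0116), limma-voom (0.0247) and no filter (0.0427).

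**Figure D1:**
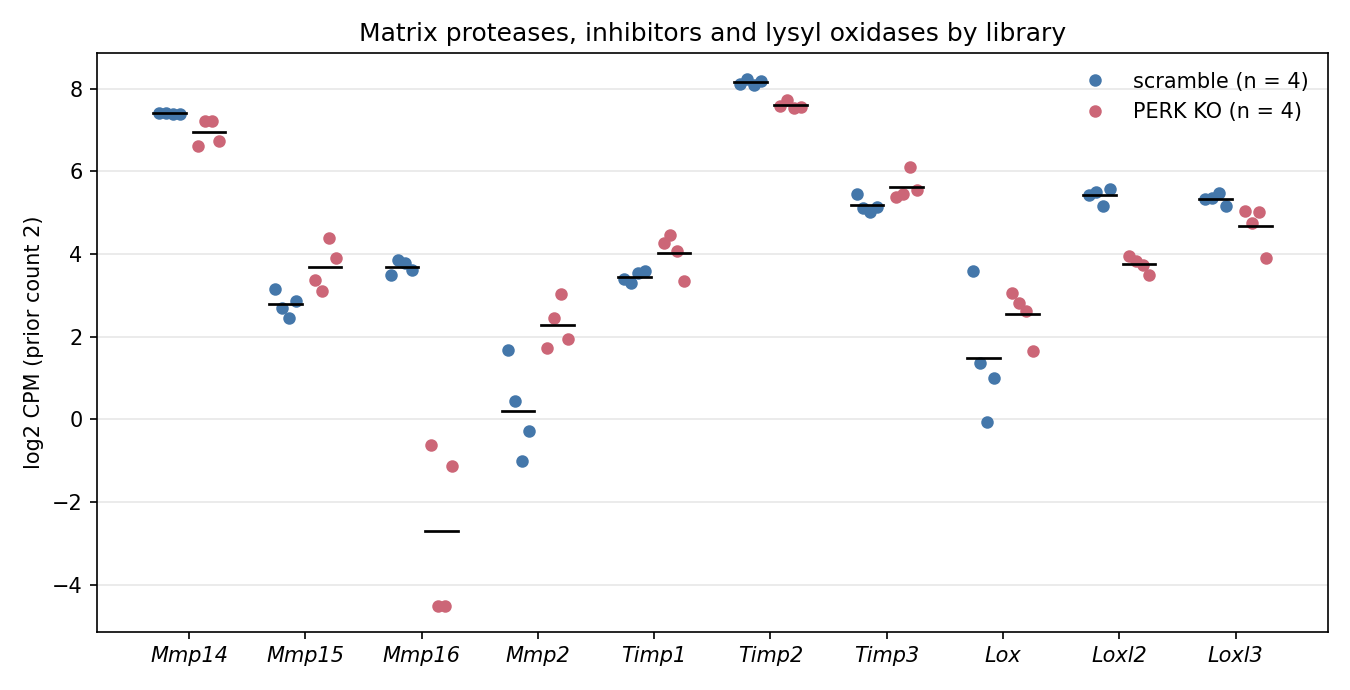
Points are log2 CPM (prior count 2) of each gene in each library, scramble in blue and PERK KO in red, and black lines are group means (n = 4). Mmp16 and Loxl2 stand clearly lower in PERK KO, Timp2 and Mmp14 are lower by a small step, and Lox has 1 high scramble library (12.1 CPM) beside 3 low ones.

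The stretches before the start sites of Mmp14 and Mmp15 are printed because these relatives had differences of opposite sign. They come from RefSeq (GRCm38.p6, plus strand) and end before the annotated start of the gene. RefSeq windows were matched for 5 of the 10 genes. Capitals mark the GC box, GGGCGG on either strand, and the copies before Mmp14 adjoin without overlap.
Mmp14: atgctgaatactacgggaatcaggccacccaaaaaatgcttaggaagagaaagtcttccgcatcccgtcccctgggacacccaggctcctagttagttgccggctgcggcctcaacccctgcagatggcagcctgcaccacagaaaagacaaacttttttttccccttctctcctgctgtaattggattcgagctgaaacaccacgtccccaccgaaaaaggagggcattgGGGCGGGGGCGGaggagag
Mmp15: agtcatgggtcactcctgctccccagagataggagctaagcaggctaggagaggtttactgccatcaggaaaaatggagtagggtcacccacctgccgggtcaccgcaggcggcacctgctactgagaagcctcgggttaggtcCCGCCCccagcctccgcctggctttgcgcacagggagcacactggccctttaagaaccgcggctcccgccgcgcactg
The 250 bases before Mmp14 (chr14:54431348-54431597) held 2 GC boxes, next to each other. The 222 bases before Mmp15 (chr8:95352046-95352267) held 1, on the minus strand. Of 32851 windows of 250 bases before RefSeq start sites, 32.7% held at least 1. Such a match is a description of letters and not a binding site.

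Timp2 was the most abundant of the 10 genes and fell. The gene (ENSMUSG00000017466.9) spans chr11:118301069-118355740 on the minus strand. Scramble libraries 2 to 5 had 278, 299, 271 and 289 CPM, and PERK-deficient libraries 1 to 4 had 190, 212, 186 and 189 CPM. The groups were narrow and did not overlap. By edgeR's test Timp2 fell by 0.55 (log2, SE 0.08, adjusted p = 0.00168), and all 4 PERK-deficient libraries were lower. The 10 melanocyte lineage markers had a median log2 difference of -0.44 in the same libraries, and 6 of them passed as lower and none as higher.

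Timp1 and Timp3 leaned the other way. Timp1, a secreted inhibitor induced in many inflamed tissues (ENSMUSG00000001131.11, chrX:20870166-20874735), had 10.4, 9.84, 11.5 and 11.9 CPM in scramble libraries 2 to 5. It had 19.1, 21.8, 16.7 and 10.2 CPM in PERK-deficient libraries 1 to 4. Of the PERK-deficient libraries, 3 were above all scramble libraries, and library 4 was within their range. The log2 difference was 0.63 (SE 0.22, edgeR adjusted p = 0.0788), and without PERK_KO replicate 4 it was 0.81 and passed (adjusted p = 0.00893). It also passed with DESeq2 (0.0333) and limma-voom (0.0411). Timp3, which stays bound to the matrix (ENSMUSG00000020044.13, chr10:86300372-86349506), had 43.9, 34.8, 32.0 and 35.1 CPM in scramble and 41.5, 43.96, 68.6 and 46.4 CPM in PERK-deficient libraries. Its groups overlapped (log2 difference 0.46, SE 0.16, edgeR adjusted p = 0.0883), and it passed with DESeq2 alone of the tools (0.0426). Exons of Timp3 share 1733 bases with Syn3 on the opposite strand, and although the kit keeps strand, the strand setting of the counting is not given in the sources used here. Syn3 had 493 counts over all libraries against 15518 for Timp3.

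The copper-binding site of the lysyl oxidases is shown for Loxl2 and Loxl3 because their counts must be read with their sequence in view. Each stretch is 63 coding bases of GENCODE M21 (mm10, plus strand), capitals mark the 33 bases at the copper-binding site, and both cross the junction of exons 10 and 11 of 14 (chr14:69682301-69689052 and chr6:83049980-83050140).
Loxl2: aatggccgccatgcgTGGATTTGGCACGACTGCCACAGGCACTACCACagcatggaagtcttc
Loxl3: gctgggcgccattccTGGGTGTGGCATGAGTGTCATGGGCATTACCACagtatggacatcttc
The stretches differ at 16 of 63 bases, and none of the 4694 words of 50 bases in Loxl3 transcripts occurs in another gene. Loxl2 has a close copy. The pseudogene Gm21451 (ENSMUSG00000094526.1, chr14:69390854-69480287), which GENCODE places on the same strand of the same chromosome, holds 42.9% of the 50-base words of Loxl2, the printed stretch among them. Gm21451 had 0 counts in all 8 libraries. How the authors' counting treated reads that match both is not given in the sources used here, so the level of Loxl2 is uncertain.

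Loxl2, an enzyme of collagen IV crosslinking, was lower in each PERK-deficient library. The gene (ENSMUSG00000034205.16) spans chr14:69609068-69695834. Scramble libraries 2 to 5 had 43.0, 45.4, 35.7 and 47.4 CPM, and PERK-deficient libraries 1 to 4 had 15.5, 14.2, 13.3 and 11.2 CPM. The groups were far apart, and each was narrow beside the gap between them. The means were 42.9 ± 5.12 CPM and 13.6 ± 1.82 CPM (SD, n = 4 and 4), a 3.16-fold difference, or -1.66 (SE 0.14) on the log2 scale. Leaving out any 1 library gave -1.74 to -1.58.

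Loxl3 was lower by a smaller step. The gene (ENSMUSG00000000693.10, chr6:83034173-83052562) had 40.3, 41.1, 44.3 and 36.0 CPM in scramble libraries 2 to 5. It had 32.8, 26.9, 32.3 and 14.9 CPM in PERK-deficient libraries 1 to 4, all under the scramble range, with library 4 the lowest. The log2 difference of -0.60 (SE 0.21) did not pass (edgeR adjusted p = 0.0801). It was -0.40 without PERK_KO replicate 4, where it passed (adjusted p = 0.04997), and it passed with limma-voom (0.0341). Exons of Loxl3 share 535 bases with Htra2 on the opposite strand, which had 18925 counts over all libraries against 12567 for Loxl3.

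Lox, the founding member of the family, followed 1 scramble library. The gene (ENSMUSG00000024529.14) had 12.1, 2.54, 0.910 and 1.95 CPM in scramble libraries 2 to 5 and 8.24, 7.001, 6.11 and 3.12 CPM in PERK-deficient libraries 1 to 4. Scramble library 2 was above all others, and the other 3 scramble libraries were below every PERK-deficient one. The log2 difference of 0.48 (SE 0.68, edgeR adjusted p = 0.742) became 1.75 without scramble replicate 2 (adjusted p = 0.0537). Interstitial collagen transcripts were high in the same library. Col1a1 had 99.5, 15.5, 5.35 and 14.96 CPM in scramble libraries 2 to 5 and 20.8, 46.5, 100.4 and 55.1 CPM in PERK-deficient libraries 1 to 4. The 11 fibroblast and mural markers took 117, 73.7, 36.8 and 84.1 CPM and 68.8, 86.0, 178 and 120 CPM in the same order. Mmp2 was also highest in library 2 among the scramble libraries and highest in library 3 among the PERK-deficient ones. Lox went the other way among the PERK-deficient libraries, and was highest in library 1, where Col1a1 and these markers were lowest. The part of fibroblast content in these values was not tested. Col1a1 and the library order of the collagens were looked up after the values of Lox were seen.

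Between genes, levels were compared as CPM per kb of exon. In scramble tumours the order from high to low was Timp2 (73.0), Mmp14 (28.3), Timp1 (12.3), Loxl3 (8.78), Loxl2 (7.94), Timp3 (4.47), Mmp16 (1.49), Mmp15 (1.298), Lox (0.915) and Mmp2 (0.424). Among neighbours in this order, Loxl3 and Loxl2 overlapped in their library values, as did Mmp16 and Mmp15, Mmp15 and Lox, and Lox and Mmp2. The wide range of Lox also took in that of Mmp16. In PERK-deficient tumours the order was Timp2 (49.8), Mmp14 (21.0), Timp1 (19.1), Timp3 (6.15), Loxl3 (5.80), Mmp15 (2.54), Loxl2 (2.51), Mmp2 (1.53), Lox (1.28) and Mmp16 (0.0294). There Mmp14 overlapped with Timp1, and from Timp3 down to Lox each gene overlapped with the next. Counting only the length of Loxl2 that no other gene shares (2.97 kb), its level was 14.4 in scramble and 4.56 in PERK-deficient tumours. On that basis its mean was above that of Loxl3 in scramble and below it in PERK-deficient tumours, so their order in scramble depends on the treatment of shared reads.

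Shares within a family do not depend on the scaling between libraries. Of the summed CPM per kb of 5 lysyl oxidases, Loxl2 made up 44.2 ± 5.50% in scramble and 25.2 ± 4.12% in PERK-deficient tumours (SD, n = 4 and 4). Loxl3 made up 49.1 ± 6.57% and 55.6 ± 5.60%. These shares use the full exon length of Loxl2, so they depend on how reads that it shares with other genes were treated. Among 6 membrane-type metalloproteinases Mmp14 held 90.1 ± 0.26% and 83.2 ± 6.40%, Mmp15 4.13 ± 0.82% and 10.04 ± 3.12%, and Mmp16 4.75 ± 0.55% and 0.14 ± 0.18%. Among 4 TIMPs Timp2 held 81.2 ± 1.37% and 66.6 ± 4.82%, and Timp1 13.7 ± 1.38% and 25.1 ± 5.34%. The ratio of Timp2 to Mmp14 per kb was 2.58 ± 0.11 in scramble and 2.45 ± 0.49 in PERK-deficient tumours, with PERK-deficient libraries on both sides of the scramble range. These shares restate the comparison that chose the genes and carry no test.

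**Figure D2:**
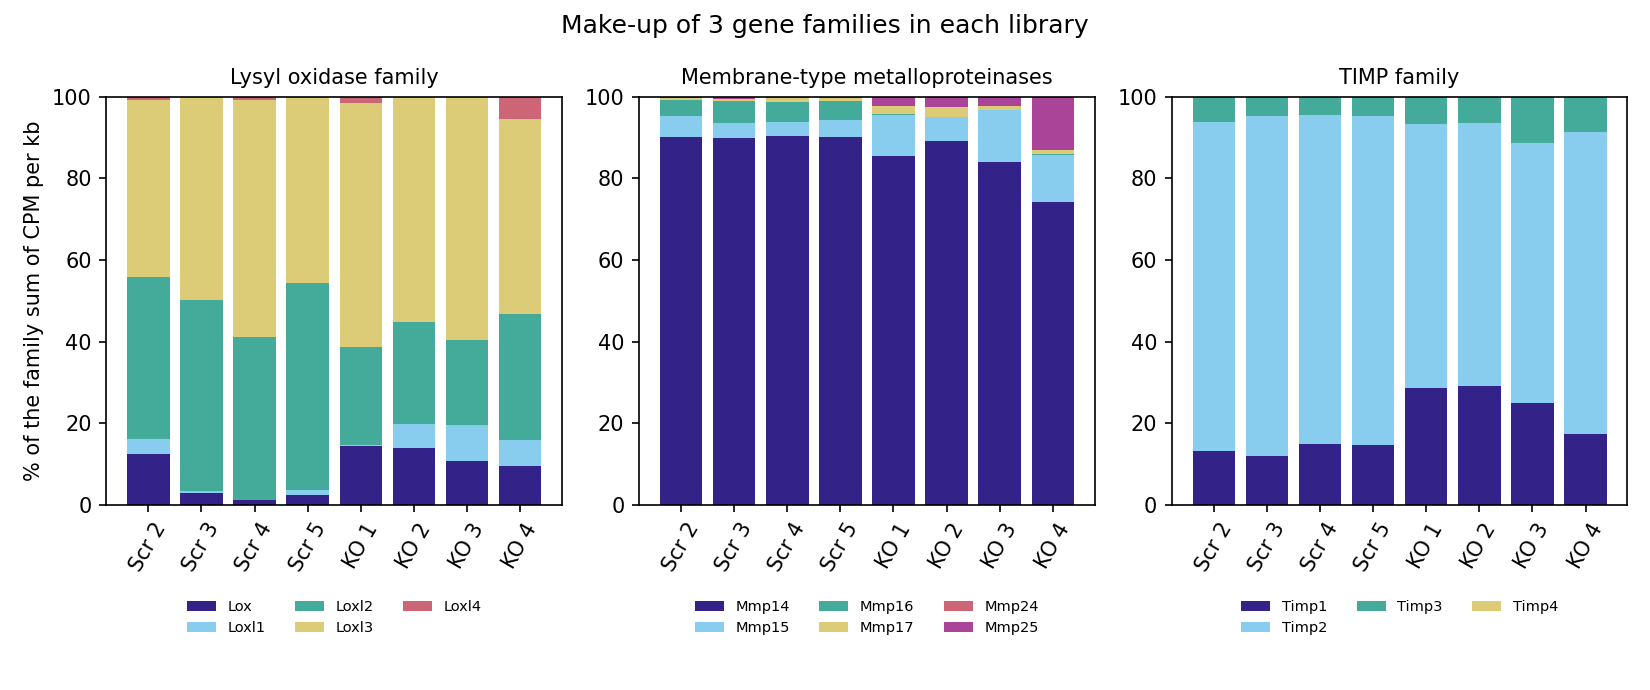
Each bar is 1 library (Scr, scramble 2 to 5, and KO, PERK KO 1 to 4) and shows each gene's percentage of its family's summed CPM per kb of exon. Loxl2 makes up 39.5 to 50.8% of lysyl oxidases in scramble and 20.9 to 30.7% in PERK KO, and Timp2 at least 80.4% and at most 73.8% of TIMPs. The shares of lysyl oxidases depend on how reads that Loxl2 shares with other genes were treated.

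Of the 10 genes, 4 were past the threshold of the fit across all genes: Mmp15 higher, and Timp2, Loxl2 and Mmp16 lower. Over all 16662 genes tested 13.8% passed, 7.66% as higher and 6.13% as lower. The groups did not overlap at 6 of the 10 genes, 5 lower and 1 higher, against 21.3% of all genes. The median log2 difference was 0.02 over the 10 genes and -0.02 over all genes. Nothing can be read from these counts, or from Loxl2 and Mmp16 being past the threshold, since the same comparison was used in choosing the set. The total of 2299 genes that passed became 1283, 1078, 1428 and 1361 without scramble replicates 2, 3, 4 and 5. Of these calls 1277 were higher and 1022 lower, against 1430 and 653 with upper-quartile factors and 4790 and 144 with the melanocyte marker scaling described next.

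The differences were also computed with each library scaled to the total of its 10 melanocyte lineage markers, a setting chosen after the data were seen. This moved the median difference of all genes up by 0.42 on the log2 scale, and the members' values below are on that shifted scale. Loxl2 was still lower by this measure, at -1.26, and Mmp16 at -5.28. Timp2 was at -0.13 and no longer passed (edgeR adjusted p = 0.29). Mmp14 was at -0.02 (adjusted p = 0.94) and Loxl3 at -0.21 (0.427). Mmp15 stayed past the threshold at 1.398 (adjusted p = 0.00659), and Mmp2, Timp1 and Timp3 passed at 2.25, 1.02 and 0.88 (0.0142, 0.00351 and 0.00481). Lox did not (0.86, adjusted p = 0.378). All 10 values moved up, as the median of all genes did. The part of melanocyte content in the lower values of Timp2, Mmp14 and Loxl3 was not tested.

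**Figure D3:**
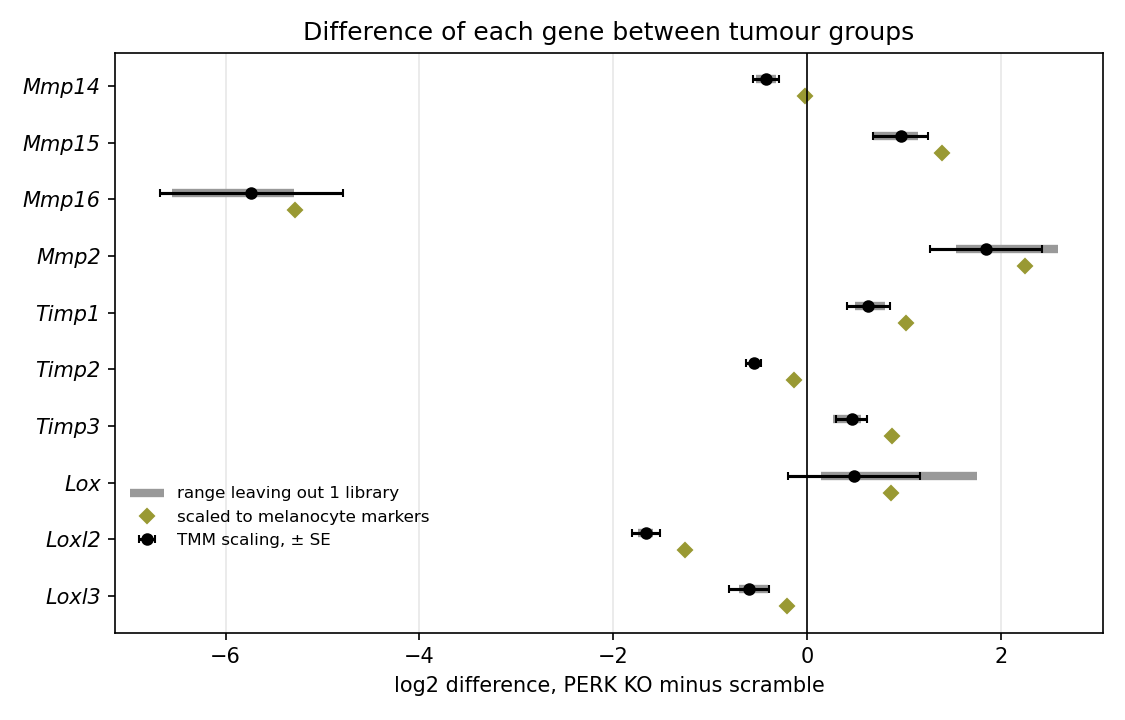
Black points are log2 differences (PERK KO minus scramble, 4 libraries each) with their SE, grey bars the range when 1 library is left out, and diamonds the values after scaling to melanocyte markers. Loxl2 (-1.66 and -1.26) and Mmp16 (-5.73 and -5.28) lie well below 0 on both scales, while Timp2 moves from -0.55 to -0.13.

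Other genes of matrix breakdown and crosslinking were taken from 8 lists by function. The lists were drawn up with earlier results of these data known, so the share that passed is a description. Of 115 listed genes 99 were tested, and 14 rose and 7 fell, or 21.2% against 13.8% of all genes. Without scramble replicate 3 the count was 7 higher and 6 lower. Scaled to melanocyte markers it was 41 higher and 2 lower. None of 8 tested secreted metalloproteinases passed with edgeR, DESeq2 or limma-voom, and 2 of them, Mmp13 and Mmp19, had an unadjusted edgeR p below 0.05 (Mmp13 is named after its value was seen). Mmp12, the macrophage elastase, had 8.86 ± 3.44 and 16.6 ± 9.42 CPM in the scramble and PERK-deficient groups (edgeR adjusted p = 0.204). Mmp12 passed without PERK_KO replicate 1 (0.0292) and when scaled to melanocyte markers (0.0454). All 8 macrophage and monocyte markers were higher in the same libraries, and their part in its values was not tested.

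Among 20 tested ADAM and ADAMTS proteases 2 rose and 3 fell. Adam12, a membrane protease of growing and invasive tissue, fell from 265 ± 10.8 to 141 ± 8.32 CPM (log2 difference -0.91, SE 0.08, edgeR adjusted p = 9.11e-05), and still passed at -0.49 when scaled to melanocyte markers (adjusted p = 0.00594). Adam9, a membrane sheddase, fell by 0.59 (SE 0.08, adjusted p = 0.00129), but was at -0.18 on the melanocyte scale (adjusted p = 0.213). Adam8, a protease of leukocytes, rose by 1.92 (SE 0.35, adjusted p = 0.00602). Of 3 other membrane-bound metalloproteinases Mmp25, the leukocyte-type MT6-MMP, rose by 3.27 (SE 0.62, adjusted p = 0.00659), and by 2.26 without PERK_KO replicate 4. The 6 pan-leukocyte markers all passed as higher in the same libraries, and their part in these values was not tested.

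Of 10 tested activating proteases and receptors 2 rose, and of 9 other inhibitors 2 rose. Furin, which removes the propeptide of membrane-type metalloproteinases, had 75.7 ± 3.94 and 73.1 ± 19.6 CPM in the scramble and PERK-deficient groups (edgeR adjusted p = 0.895). St14 (matriptase), a serine protease of epithelial surfaces, had 0.233 ± 0.241 and 4.73 ± 1.98 CPM, a rise of 4.31 (SE 0.93, edgeR adjusted p = 0.0116), or 5.00 without scramble replicate 2. Its inhibitor Spint2 rose by 5.73 (SE 0.86, adjusted p = 0.00232), and by 6.66 without scramble replicate 2 and 5.14 without PERK_KO replicate 4. All 8 epithelial markers also passed as higher in these libraries, and their part was not tested. Of 7 lysosomal cathepsins 2 rose, Ctss and Ctsh, which antigen-presenting cells use (edgeR adjusted p = 0.0232 and 0.0111). Without scramble replicate 3 neither passed (adjusted p = 0.0816 and 0.0528), nor did Ctss without scramble replicate 2 (0.0636). The 8 macrophage and monocyte markers had a median log2 difference of 2.40, beside 2.52 for Ctss and 2.39 for Ctsh, and their part was not tested.

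Of 19 tested genes of collagen maturation and crosslinking, 3 rose, 1 fell and 15 did not pass, with a median log2 difference of 0.13. Tgm2, a transglutaminase that crosslinks matrix proteins by another bond, rose from 3.17 ± 1.49 to 19.8 ± 8.56 CPM (log2 difference 2.64, SE 0.39, edgeR adjusted p = 0.00216). Pcolce, which speeds the trimming of procollagen, rose by 0.71 (SE 0.12, adjusted p = 0.00416). Serpinh1, the collagen chaperone HSP47, fell by 0.44 (SE 0.08, adjusted p = 0.0059), and was at -0.03 on the melanocyte scale (adjusted p = 0.843). Of 23 substrates and partners 2 rose and 3 fell. Tgfb1, a growth factor that induces matrix genes, rose from 66.0 ± 2.05 to 99.3 ± 21.7 CPM (0.59, SE 0.14, edgeR adjusted p = 0.0151). Its relative Tgfb3 rose by 1.12 (SE 0.30, adjusted p = 0.028), a call that ended without any 1 of the 4 scramble libraries and without PERK_KO replicates 3 or 4 (adjusted p from 0.0525 to 0.0891). Fbln5, an elastic fibre protein, fell from 486 ± 18.9 to 307 ± 21.6 CPM (-0.66, SE 0.08, edgeR adjusted p = 0.000764), and passed at -0.25 on the melanocyte scale (adjusted p = 0.0315). Itgav, the integrin αv chain, fell by 0.58 (SE 0.08, adjusted p = 0.00172). Hif1a, which encodes a factor stabilised in low oxygen, fell by 0.45 (SE 0.09, adjusted p = 0.00678). Neither passed on the melanocyte scale (edgeR adjusted p = 0.307 and 0.9). The other 5 genes of the 8 lists that passed were Adamts9, Cst3, Plau and P4hb as higher and Adamts1 as lower, and for each of them leaving out scramble replicate 3 ended the call.

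**Figure D4:**
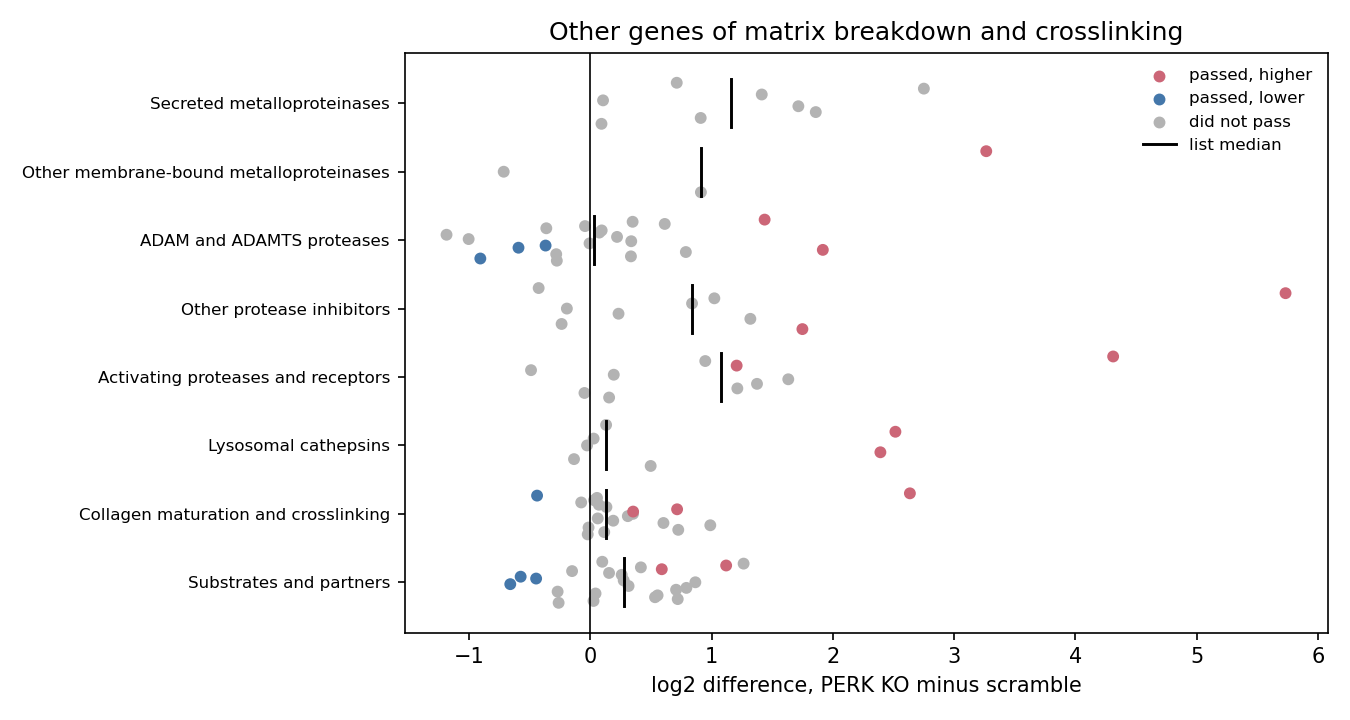
Each point is 1 tested gene of 8 functional lists at its log2 difference (PERK KO minus scramble), red where it passed as higher (14 genes), blue where it passed as lower (7) and grey otherwise, and black lines are list medians. Genes that passed as lower had small differences, none beyond -0.91, while the rises that passed reached 5.73 (Spint2).

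The genes whose level over the 8 libraries was most like that of Loxl2 and of Mmp16 were named by the Pearson correlation of log2 CPM. With 2 groups of 4 such a correlation mainly restates the group difference, and it is given with no test. For Loxl2 they were Gas2l3 (r = 0.995), Glrb (0.993), Nckap1 (0.993), Eif4ebp2 (0.992) and Fndc3c1 (0.991). Their sizes differed widely. Gas2l3 went from 258 ± 7.32 to 203 ± 5.94 CPM and Fndc3c1 from 241 ± 17.0 to 9.34 ± 3.38 CPM. For Mmp16 they were Vps45 (0.993), Wdhd1 (0.992), Neto2 (0.989), Rab38 (0.987) and Arl6ip1 (0.986). Rab38, a melanosome transport gene, went from 226 ± 12.04 to 134 ± 22.04 CPM. In all, 173 genes had r above 0.95 with Loxl2 and 92 with Mmp16.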

How the data were processed

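Per the submitters' processing notes, the build was mm10, and the tools named are DESeq2 1.30.1, HTSeq 0.6.1, STAR 2.5.3a and bcl2fastq, without settings. The values tested are the deposited counts per gene, which are whole numbers. A scaled signal that the authors deposited beside them, in which every count of a library is divided by the same factor, served only as a check. All 55450 gene identifiers matched GENCODE M21, which gave positions, exon lengths and sequences. Genes were filtered with filterByExpr, and counts were scaled with TMM and tested with edgeR 4.0.16 (quasi-likelihood, robust, ~ group, R 4.3.3) at a Benjamini-Hochberg adjusted p of 0.05 over 16662 genes. The SE of each log2 difference was derived from the test, as its absolute size divided by the square root of edgeR's F statistic. The spread between replicates was a biological coefficient of variation of 46.3%. The labels give each library a tumour of its own, but do not say whether each had a mouse of its own, so p-values measure the spread between these libraries. Alternatives were DESeq2 1.42.0, limma-voom (limma 3.58.1), other scalings and filters, a fit that is not robust, leaving out single libraries and a replicate block. On simulated counts for this comparison 200 of 16662 genes were changed, all drawn from genes with a mean of at least 1 CPM. Of those changed 1.5-, 2-, 4- and 8-fold, 28, 56, 76 and 86% were recovered, and 5 of 16462 unchanged genes were called. Recovery of genes under that level was not measured. The members and lists were chosen with earlier results of these data known. Named genes were the 10 members, up to 4 called and 2 abundant genes per list and the 5 genes most like Loxl2 and Mmp16, and the text writes out some of those. Of the list genes, Tgfb3, Mmp13 and Col1a1 are named outside this rule. Sequence was handled with biopython 1.88, tables and plots with Python 3.11.15, pandas 2.3.3 and matplotlib 3.10.9.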

Additional observations from a re-analysis of the deposited data

How the results depend on the processing

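No member changed direction under any of the 19 alternatives. The count of 2299 genes past the threshold became 4934 when scaled to melanocyte markers, and ran from 1078 to 2616 when 1 library was left out. Among the matrix genes of the 8 lists, 21 passed, 43 when scaled to melanocyte markers, and 13 to 26 when 1 library was left out. Numbers 2, 3 and 4 occur in both groups. With the replicate number as a block these 6 libraries gave 199 genes, against 1334 without the block, and 4 matrix genes against 20. The correlations of same-numbered libraries' deviations were -0.0339, 0.033 and -0.153, and no library correlated best with its own number, so the numbers were not taken as pairs. With the block Timp2 and Mmp15 no longer passed (edgeR adjusted p = 0.081 and 0.198). Mmp15 did not pass in the same libraries without the block either. Mmp16 was also not past the threshold with the block. Mmp16 and Loxl2 chose the set by their fall, so whether either passes supports nothing. Mmp12 passed with the block (adjusted p = 0.0486 by edgeR). The log2 difference of Mmp16 was -7.33 with the block and -7.44 with limma-voom. Floors cover counting error only.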
